A study of Mus musculus with 2 samples.

Results

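The genes described here are those of cholesterol and fatty acid synthesis, listed by name in a sterol branch of 21 genes and a fatty acid branch of 10 genes. Of the 31 listed genes, 28 had a row among the 21216 gene rows of the count tables, 19 in the sterol branch and 9 in the fatty acid branch. Scap, Insig2 and Elovl6 had no row, so no levels are given for them, but promoters of Scap and Insig2 are included in the promoter counts below.

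The RNA came from single mouse muscle stem cells, the resident stem cells of skeletal muscle, sorted into 384-well plates and tagged well by well with a modified CEL-Seq2 protocol, which counts transcripts near their 3′ end. There were 4 conditions: 102 cells taken straight from the sort (freshly isolated, labelled quiescent) and cells cultured over 96 h in 1 of 3 media, high glucose at 25 mM (113 cells), low glucose at 5 mM (120 cells) or galactose at 10 mM (121 cells). All 3 culture media were DMEM with 1 mM pyruvate, fetal bovine and horse serum, chick embryo extract, bFGF and antibiotics. Strain, genotype, sex, age and the number of mice do not appear in the labels, nor does whether animals were pooled.

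Cells make cholesterol from acetyl-CoA through mevalonate and squalene, and make fatty acids by building, elongating and desaturating acyl chains. Both routes are controlled by the SREBP transcription factors, which are held in the endoplasmic reticulum by the Insig proteins while sterols are plentiful and are released to the nucleus when sterols fall short. Srebf2 encodes the form best known for the sterol genes and Srebf1 the forms best known for fatty acid genes, and dividing cells need both products for new membranes.

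Plate 1 carried the freshly isolated and the high glucose wells, and plate 2 the other conditions. Each condition was measured once, in 6 plate rows of its own. Condition therefore cannot be told apart from row position within a plate, nor from the plate in comparisons across plates. Because the cells of a pool come from 1 library, they do not replicate the condition: no test was run, and the 95% intervals below cover counting error only. They take each count as an independent molecule, though the sources used here do not give any collapsing by UMI (the molecular tag). Spread between cells is not covered either, so the intervals may be too narrow. The pools held 284109, 887611, 1734279 and 2035682 gene counts in freshly isolated, high glucose, low glucose and galactose cells, with medians of 2536, 6747, 13371 and 14496 counts per cell. Levels are gene counts scaled to the pool's total (CPM), and 1 count was worth 3.52 CPM in freshly isolated cells and 0.491 CPM in galactose cells. The 2 plates shared 200 well barcodes, as a common barcode set gives. All 9 markers of the muscle stem cell list had a count in every pool, with a summed level of 5959 CPM in freshly isolated cells and 1936 to 2094 CPM in the cultured pools, where Des was at only 0.491 to 1.73 CPM. By the rule given below, 7 of the 9 were lower and 1 higher in high glucose than in freshly isolated cells. Of all genes, 13.4% were lower and 21.7% higher. Markers of fibro-adipogenic cells summed to 1091, 135, 39.2 and 31.4 CPM in the same order of pools, and those of smooth muscle and pericytes to 489, 189, 72.1 and 61.4 CPM. Col3a1 (873 CPM) and Dpt (201 CPM) gave most of the fibro-adipogenic sum in freshly isolated cells. Fibro-adipogenic markers were found in 82 of those 102 wells and stem cell markers in 101, so these lists largely shared wells. Whether other cell types were present was not tested.

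Both branches were expressed in all 4 pools. The sum over the 19 sterol genes was 451, 493, 490.1 and 574 CPM for freshly isolated, high glucose, low glucose and galactose cells, from 128, 438, 850 and 1168 counts. The 9 fatty acid genes summed to 327, 242, 271 and 284 CPM in the same order, from 93, 215, 470 and 579 counts. In CPM the sterol sum was thus highest in galactose and the fatty acid sum in freshly isolated cells. The fatty acid intervals of freshly isolated and galactose cells overlapped (264 to 401 and 262 to 309 CPM). Per 1000 spike-in counts, a scaling described below, the fatty acid sum was lowest in freshly isolated cells (6.43, against 13.7 to 14.8). On that scale the sterol sums of high glucose and galactose were nearly equal (29.7 and 29.8).

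**Figure D1:**
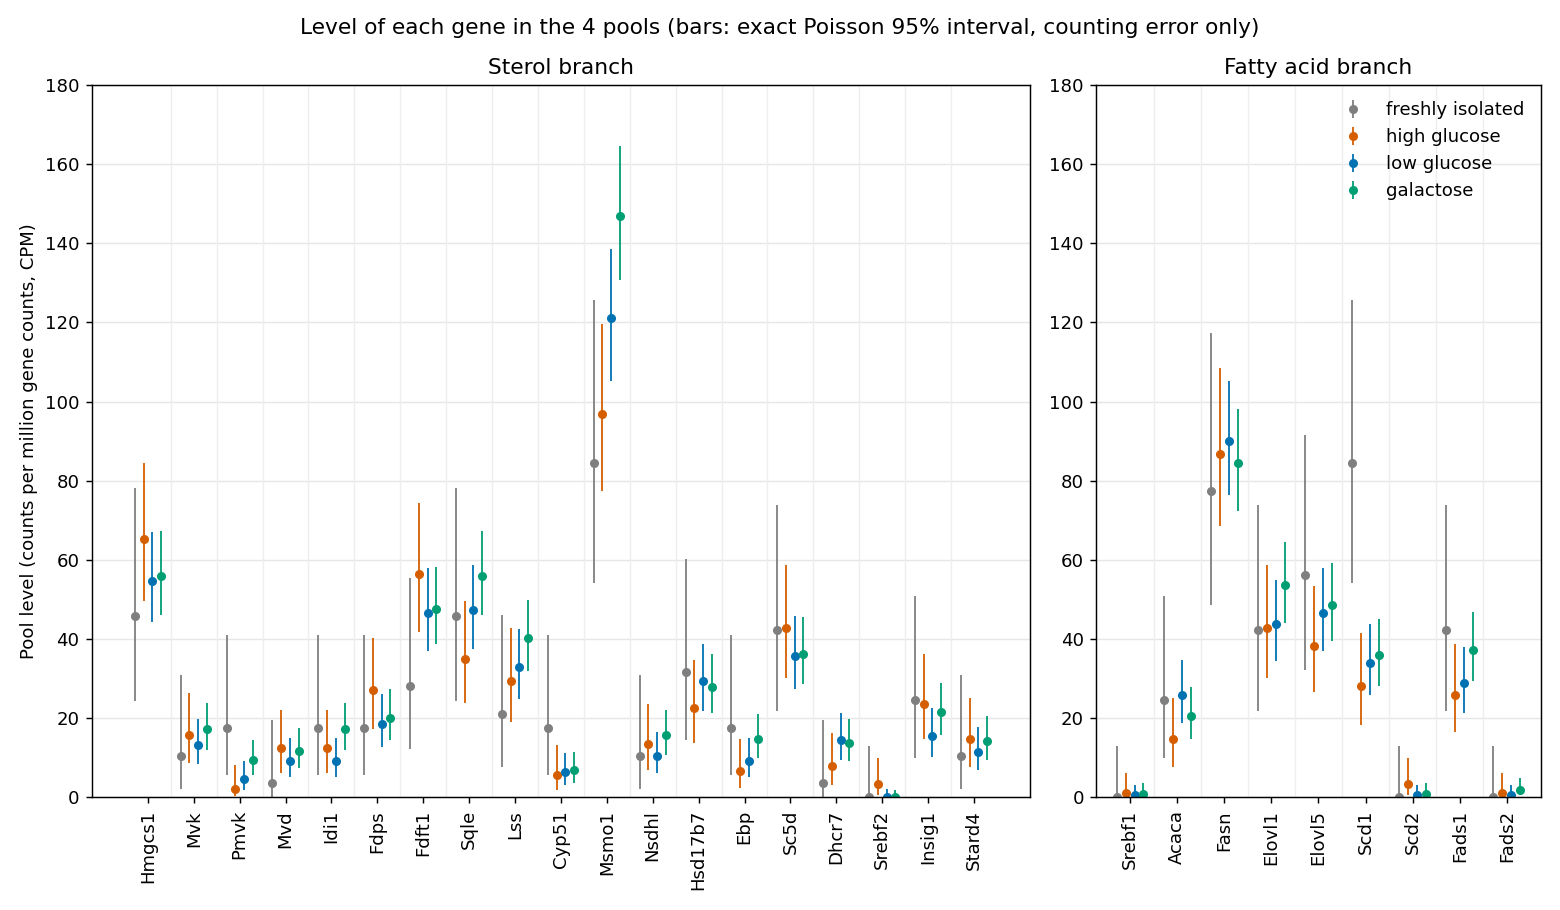
Level of each of the 28 genes in the 4 pools, in CPM on a linear axis, sterol genes on the left and fatty acid genes on the right; points are pool levels and bars exact Poisson 95% intervals. Msmo1 ran from 84.5 CPM in freshly isolated cells to 147 CPM in galactose, and Scd1 from 28.2 to 35.9 CPM in the cultured pools, against 84.5 CPM in the freshly isolated one.

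In the sterol branch, Hmgcs1, the HMG-CoA synthase that acts ahead of mevalonate, had 45.8, 65.3, 54.8 and 56.0 CPM in freshly isolated, high glucose, low glucose and galactose cells. Its plate rows overlapped throughout, from 0 to 92.1 CPM (median 43.4) in freshly isolated cells and from 36.3 to 132 CPM in high glucose. The later mevalonate genes were lower-count members: Mvk (mevalonate kinase) lay between 10.6 and 17.2 CPM, Fdps (farnesyl diphosphate synthase) between 17.6 and 27.0 CPM, and Mvd (the diphosphate decarboxylase) between 3.52 and 12.4 CPM. Pmvk, the phosphomevalonate kinase, had 5, 2, 8 and 19 counts. Idi1, the isopentenyl diphosphate isomerase, had 17.6, 12.4, 9.23 and 17.2 CPM from 5, 11, 16 and 35 counts.

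From squalene to cholesterol, Msmo1, the methylsterol monooxygenase that removes methyl groups from lanosterol products, had 24, 86, 210 and 299 counts, or 84.5, 96.9, 121 and 147 CPM. It held 18.8% of the sterol branch counts in freshly isolated cells and 25.6% in galactose. Its rows ran from 52.5 to 158 CPM in freshly isolated cells, 72.5 to 133 CPM in high glucose, 78.4 to 163 CPM in low glucose and 99.6 to 193 CPM in galactose, so the pools overlapped. Sqle, the squalene epoxidase, had 45.8, 34.9, 47.3 and 56.0 CPM. Fdft1, the squalene synthase, had 28.2, 56.3, 46.7 and 47.7 CPM, and Lss, the lanosterol synthase, had 21.1, 29.3, 32.9 and 40.3 CPM. Sc5d (a sterol desaturase) lay between 35.7 and 42.8 CPM and Hsd17b7 (a sterol ketoreductase) between 22.5 and 31.7 CPM. Nsdhl, Ebp, Cyp51 and Dhcr7, which act on the sterol ring and its methyl groups, lay between 3.52 and 17.6 CPM.

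Among the control and transport genes, Insig1, which retains the SREBP precursor in the endoplasmic reticulum and is itself an SREBP target, had 24.6, 23.7, 15.6 and 21.6 CPM. Stard4, a carrier that moves cholesterol between membranes, had 10.6, 14.7, 11.5 and 14.2 CPM. The transcription factor genes were barely counted: Srebf2 had 3 counts in high glucose, 0 in freshly isolated cells and no row on plate 2, taken as 0, and Srebf1 had 0, 1, 1 and 2 counts. A count of 0 in freshly isolated cells allows a level of up to 10.6 CPM (3 counts), so nothing can be said of how their mRNA differed between conditions.

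In the fatty acid branch, Fasn, the fatty acid synthase, had 77.4, 86.7, 89.95 and 84.5 CPM from 22, 77, 156 and 172 counts. Its rows ran from 35.0 to 138 CPM in freshly isolated cells and from 56.8 to 129 CPM in low glucose and overlapped in every pair of pools. Acaca, the acetyl-CoA carboxylase that makes the malonyl-CoA used by Fasn, had 24.6, 14.7, 25.9 and 20.6 CPM. The elongases Elovl1, which acts on very long saturated chains, and Elovl5, which acts on polyunsaturated chains, had 42.2 to 53.5 CPM and 38.3 to 56.3 CPM. Scd1, the desaturase that makes monounsaturated fatty acids, had 24, 25, 59 and 73 counts, or 84.5, 28.2, 34.0 and 35.9 CPM. Fads1, a desaturase of polyunsaturated chains, had 42.2, 25.9, 28.8 and 37.3 CPM. Scd2 and Fads2 had at most 4 counts in any pool.

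The promoter sequences of the 3 genes with a mean of at least 50 CPM over the pools, Hmgcs1, Msmo1 and Fasn, and of Idi1, the gene called higher in galactose over low glucose, are shown because the elements that SREBPs and their partner factors bind lie in such stretches. Each is the 250 bases before the RefSeq start (GRCm38.p6), written 5′ to 3′ on the gene's strand. Capitals mark TCACNCCAC (the classical sterol element), CACGTG (an E-box), CCAAT and GGGCGG (a GC box), found on either strand.
Hmgcs1, chr13:119690101-119690350, plus strand: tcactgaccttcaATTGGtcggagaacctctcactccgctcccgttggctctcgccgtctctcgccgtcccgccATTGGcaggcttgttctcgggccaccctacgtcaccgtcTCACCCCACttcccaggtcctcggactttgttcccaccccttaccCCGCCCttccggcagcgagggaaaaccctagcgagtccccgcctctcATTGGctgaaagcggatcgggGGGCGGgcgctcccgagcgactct
Msmo1, chr8:64733579-64733828, minus strand: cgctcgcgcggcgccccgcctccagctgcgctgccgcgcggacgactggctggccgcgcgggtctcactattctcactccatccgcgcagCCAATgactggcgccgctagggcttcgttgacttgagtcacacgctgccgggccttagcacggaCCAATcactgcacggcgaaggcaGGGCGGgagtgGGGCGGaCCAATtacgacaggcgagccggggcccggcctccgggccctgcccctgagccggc
Idi1, chr13:8885356-8885605, plus strand: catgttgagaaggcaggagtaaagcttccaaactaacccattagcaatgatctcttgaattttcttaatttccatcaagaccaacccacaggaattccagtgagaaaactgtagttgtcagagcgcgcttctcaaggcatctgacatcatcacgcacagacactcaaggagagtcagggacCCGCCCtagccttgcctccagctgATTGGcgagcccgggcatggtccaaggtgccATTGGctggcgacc
Fasn, chr11:120824548-120824797, minus strand: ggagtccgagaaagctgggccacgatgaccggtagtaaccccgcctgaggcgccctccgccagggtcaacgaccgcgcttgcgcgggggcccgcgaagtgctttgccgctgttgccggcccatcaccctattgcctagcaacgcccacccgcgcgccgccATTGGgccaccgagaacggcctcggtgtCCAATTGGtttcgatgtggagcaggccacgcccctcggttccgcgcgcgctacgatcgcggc
In Fasn, 1 CCAAT and 1 reverse match share bases, so they are not separate. Promoters of 24 of the 31 listed genes were found in RefSeq, 33 in all since some genes have several starts, each taken from 250 bases before to 50 after the start. Sqle, Fdft1, Fdps, Scd1, Scd2 and Fads1 were among the genes without one, so the shares below do not cover them. TCACNCCAC stood in 1 of these 33, that of Hmgcs1, and in 1.24% of all 32851 promoters. CACGTG stood in 7 of 33 (21.2%, against 7.15% of all promoters), CCAAT in 21 of 33 (63.6% against 37.4%) and GGGCGG in 24 of 33 (72.7% against 35.7%). These are matches of letters, not measured binding sites.

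The first comparison within a plate set 96 h of culture in high glucose against freshly isolated cells. A gene was counted when the mean of the 2 pools was at least 10 CPM, and called higher or lower when its CPM ratio was at least 1.5 in either direction and the exact conditional interval of the ratio left out 1. Of 15 sterol genes counted, 0 were called higher and 0 lower, and of 6 fatty acid genes 0 were called higher and 1, Scd1, lower. Over all 8882 genes counted, 21.7% were called higher and 13.4% lower, beside which the sterol branch had none. Its intervals were wide, with a median upper bound 7.38 times the lower, against 4.89 times over all genes, so that even the 2.001-fold ratio of Fdft1 was not separable from 1 at this depth.

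Scd1 stood at 84.5 CPM before culture and 28.2 CPM after it (ratio 0.333, 0.183 to 0.610). Its rows ran from 26.4 to 122.6 CPM (median 89.8) in freshly isolated cells and from 18.9 to 41.9 CPM (median 24.6) in high glucose, and the groups overlapped through 1 freshly isolated row. The fibro-adipogenic marker list, with 4 of 8 genes having a row, moved with it: 82 of the 102 freshly isolated wells and 73 of the 113 high glucose wells had a count of such a gene, and Dcn was at 0 in both pools. In the freshly isolated pool 23 of the 24 Scd1 counts lay in those wells, which held 83.2% of its gene counts, and in high glucose 18 of 25 lay in wells that held 65.1%. With all such wells left out, an alternative added after the data were seen, the ratio was 1.08, resting on 1 Scd1 count in the 20 freshly isolated wells left and 7 in the 40 high glucose wells left. The adipocyte list summed to 106 CPM in freshly isolated cells and 75.5 CPM in high glucose, with Adipoq, Plin1 and Pparg at 0 in freshly isolated cells, and the ratio without wells holding an adipocyte marker was 0.405 (0.181 to 0.901).

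Summed over the branch, the fatty acid genes had a ratio of 0.740 (0.578 to 0.954), and without Scd1 a ratio of 0.881 (0.666 to 1.18). Of the other fatty acid genes, Fads1 had 42.2 CPM in freshly isolated cells against 25.9 CPM (ratio 0.613, 0.293 to 1.35), Acaca 24.6 against 14.7 CPM (ratio 0.594, 0.220 to 1.76) and Elovl5 56.3 against 38.3 CPM (ratio 0.680, 0.365 to 1.32), while Fasn and Elovl1 had ratios of 1.12 and 1.01. The sterol sum had a ratio of 1.10 (0.898 to 1.34). Its members spread to both sides: Fdft1 had a ratio of 2.001 (0.941 to 4.89) and Hmgcs1 of 1.43 (0.773 to 2.84), against 0.320 (0.0737 to 1.39) for Cyp51 and 0.384 (0.0977 to 1.59) for Ebp. Cyp51 and Ebp each had 5 counts in freshly isolated cells (17.6 CPM), and 5 and 6 in high glucose (5.63 and 6.76 CPM). Being under the minimum in high glucose, Cyp51 and Ebp could be counted only with a ratio below 1. The median log2 ratio with a pseudocount of 1 CPM was 0.20 in the sterol branch and -0.61 in the fatty acid branch, beside 0.34 over all genes counted. With the minimum applied again on each scale, the sterol median was -0.14 with TMM factors and -0.18 with median-of-ratios factors. Over the same 15 genes it was -0.05 and -0.09. It was 0.80 after thinning, 0.35 with the minimum at 50 CPM, and -0.84 without wells holding a fibro-adipogenic marker, where 20 freshly isolated wells were left. The 4 low sterol genes not counted included Pmvk, at 17.6 CPM in freshly isolated cells and 2.25 CPM in high glucose (ratio 0.128, 0.0122 to 0.782), from 5 and 2 counts.

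**Figure D2:**
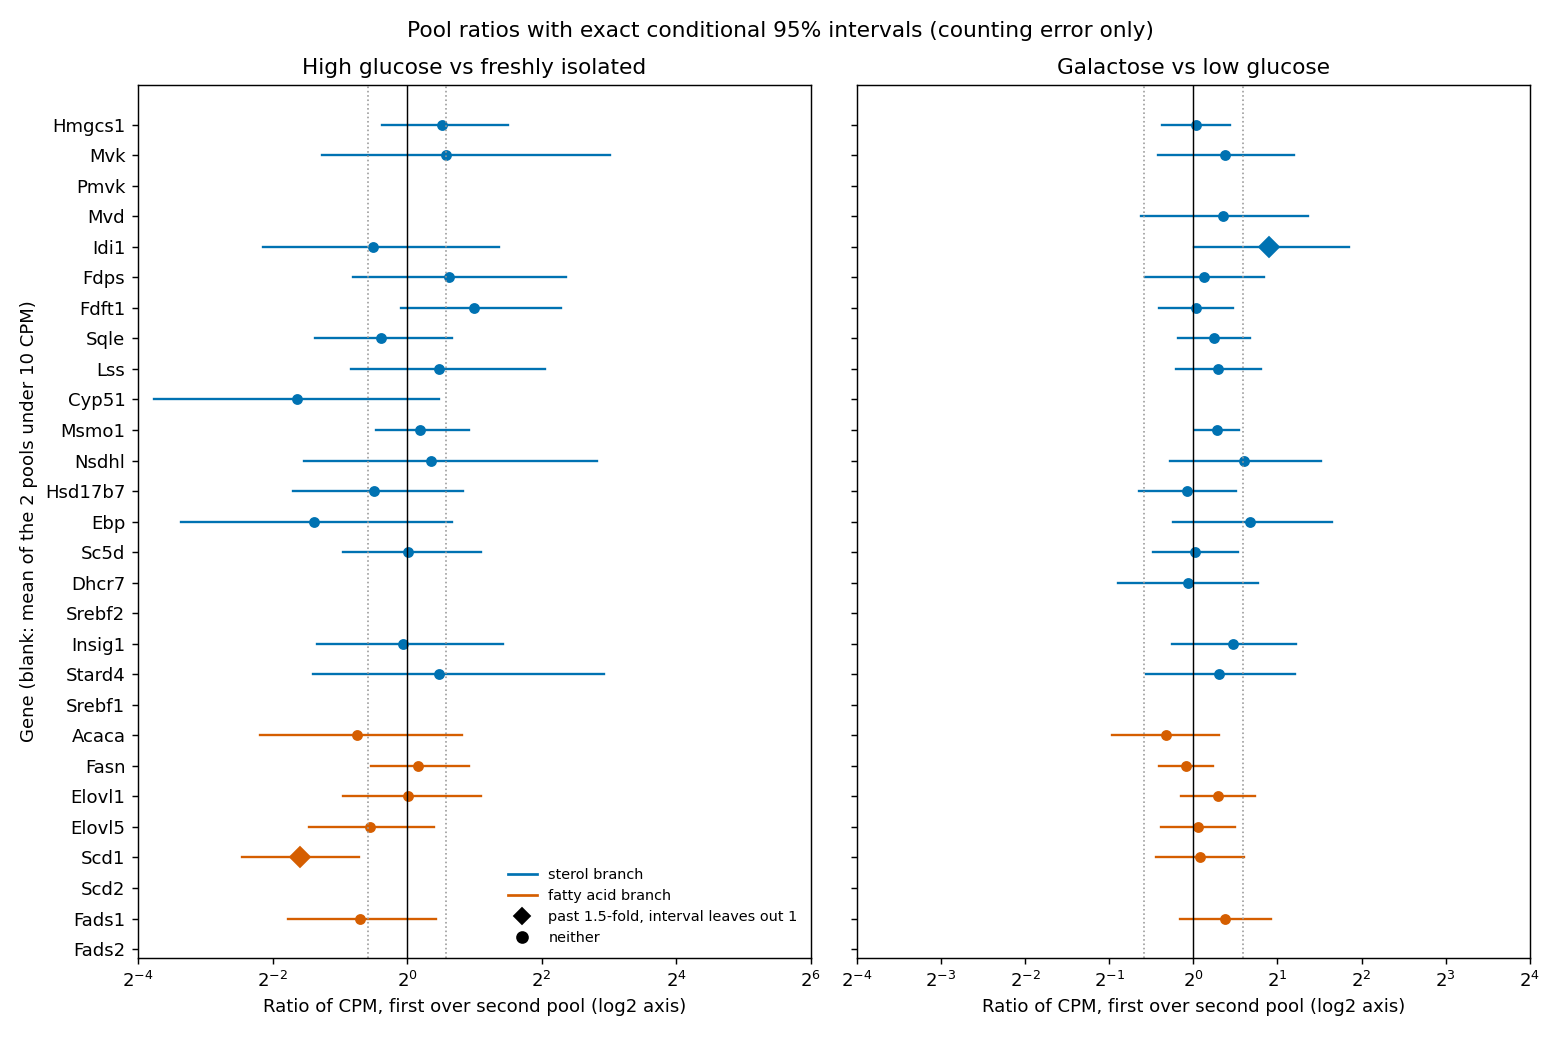
CPM ratio of each gene within plate 1 (left) and plate 2 (right) with exact conditional 95% intervals on a log2 axis, sterol genes in blue and fatty acid genes in orange; diamonds pass 1.5-fold with an interval leaving out 1, circles do not, and dotted lines stand at 1.5-fold. Scd1 (0.333) is the diamond on the left and Idi1 (1.86) the one on the right.

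Scaling by spike-in counts changes this picture, since CPM gives only a share of a pool's own gene counts. Synthetic spike-in RNAs were added to the wells, and the median ratio of gene to spike-in counts was 18.3 before culture and 57.0 after it. Whether the RNA held per cell differed was not tested. Scaled by the summed spike-in counts, the sterol sum had 8.84 per 1000 spike-in counts before culture and 29.7 after it (ratio 3.36), and the fatty acid sum 6.43 and 14.6 (ratio 2.27). With the spike-in totals brought to the geometric mean of the pools' gene totals and the minimum of 10 applied on that scale, 14 of 19 genes counted were called higher and 0 lower, where 81.2% of all genes were called higher and 2.23% lower. The share of members called higher, 11 of 13 in the sterol branch and 3 of 6 in the fatty acid branch, is near that background or below it. The 5 counted genes not called higher were Idi1, Hsd17b7, Acaca, Fads1 and Scd1, and Scd1 had 1.66 per 1000 spike-in counts before culture and 1.70 after it (ratio 1.02, 0.561 to 1.87). This scaling moved the median of all genes by 1.57 on the log2 scale, TMM factors moved it by -0.24 and median-of-ratios factors by -0.28. Relative to the median of all genes, the sterol median was -0.14 in CPM and -0.13 per spike-in count, and the fatty acid median -0.95 in both. These values are near-equal by construction, since the scaling multiplies all genes of a pool by the same factor and only the pseudocount parts them.

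**Figure D3:**
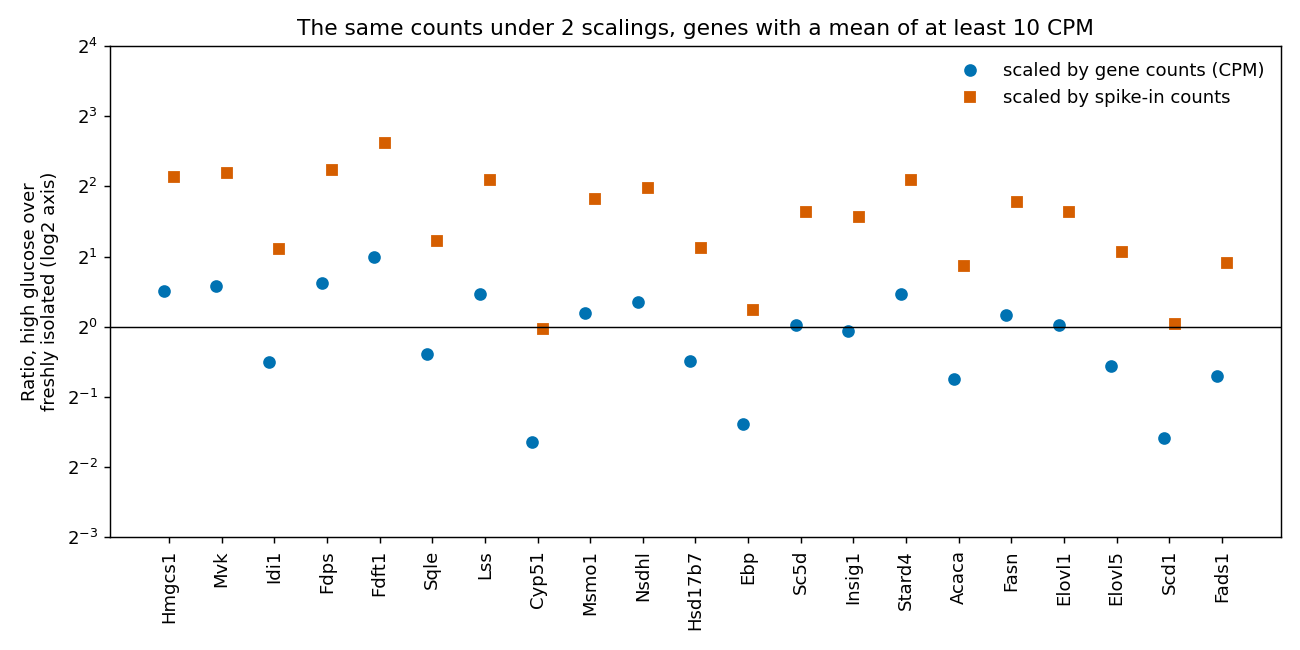
Ratio of high glucose over freshly isolated cells for the 21 genes with a mean of at least 10 CPM, on a log2 axis, from the same counts scaled by gene counts (circles) and by spike-in counts (squares). Scd1 moves from 0.333 to 1.02 and Msmo1 from 1.15 to 3.52.

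The second comparison within a plate set galactose against low glucose, both after 96 h. Galactose is a poor substrate for glycolysis, and cells given it in place of glucose rely more on respiration. Of 16 sterol genes counted 1, Idi1, was called higher and 0 lower, and of 6 fatty acid genes 0 were called in either direction, where 1.53% of 8689 genes were called higher and 1.25% lower. Idi1 included, 14 of the 16 sterol genes had a ratio above 1, where 4541 of all 8689 genes did. The sterol median log2 ratio was 0.28 beside 0.01 over all genes. Idi1, Ebp and Mvd, at 9.23 CPM each in low glucose, were under the minimum there. They were counted through galactose (17.2, 14.7 and 11.8 CPM), so they could only add ratios above 1. Of the fatty acid genes 4 of 6 lay above 1, with a median of 0.07.

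The sterol sum was 490.1 CPM in low glucose and 574 CPM in galactose, a ratio of 1.17 (1.07 to 1.28) that leaves out 1 by counting error but stays far under 1.5-fold. Rows of low glucose ran from 387 to 597 CPM (median 486) and rows of galactose from 403 to 669 CPM (median 575), so the rows overlapped widely. The sum without Msmo1 had a ratio of 1.16 (1.04 to 1.28), so the difference did not rest on that gene. The fatty acid sum was 271 CPM in low glucose and 284 CPM in galactose (ratio 1.05, 0.928 to 1.19), with rows from 215 to 335 CPM and from 235 to 349 CPM.

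**Figure D4:**
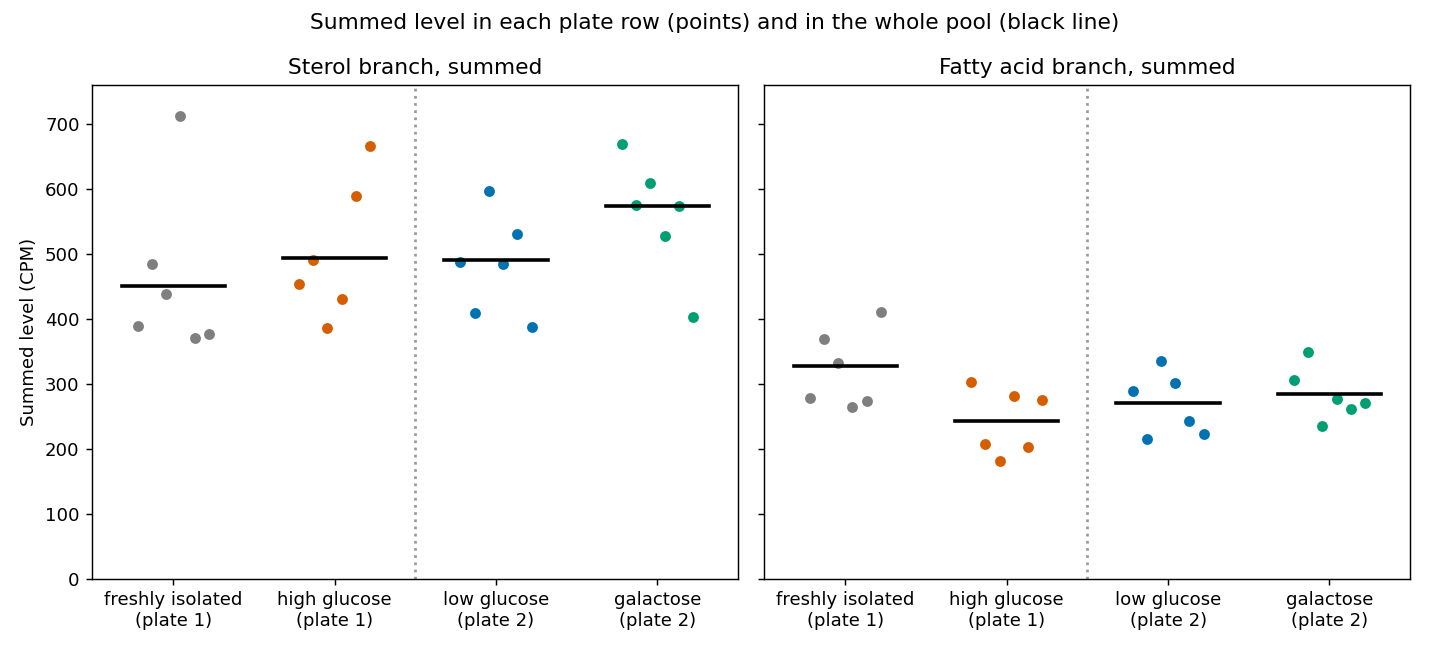
Summed CPM of the sterol branch (left) and of the fatty acid branch (right) in each of the 6 plate rows of a condition (points, in plate order) and in the whole pool (black lines); the dotted line parts the plates. Sterol rows reach 597 CPM in low glucose and 669 CPM in galactose and overlap in every condition.

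Idi1 had 9.23 CPM in low glucose and 17.2 CPM in galactose (16 and 35 counts, ratio 1.86, 1.005 to 3.61). Its rows ran from 0 to 12.2 CPM in low glucose and from 8.0 to 23.8 CPM in galactose, 1 galactose cell held 6 of the 35 counts, and the interval reached almost to 1. Msmo1 had 121 and 147 CPM (ratio 1.21, 1.01 to 1.45), under the fold. Several other counted genes had larger ratios than Msmo1 with intervals that held 1. Among them were Ebp, the sterol isomerase, with 9.23 and 14.7 CPM (ratio 1.60, 0.843 to 3.14), Nsdhl, which removes the oxidised methyl groups, with 10.4 and 15.7 CPM (ratio 1.52, 0.825 to 2.87), and Insig1 with 15.6 and 21.6 CPM (ratio 1.39, 0.841 to 2.33). At the other end, Hsd17b7 and Dhcr7 were the 2 counted sterol genes below 1, with ratios of 0.952 (0.641 to 1.42) and 0.954 (0.536 to 1.71). Of the fatty acid genes, Acaca had 0.795 (0.510 to 1.24) and Fasn 0.939 (0.752 to 1.17). The intervals here were narrower than on plate 1, with a median upper bound 2.72 times the lower in the sterol branch and 1.94 times in the fatty acid branch.

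Across the plates, low glucose and galactose were each set beside high glucose. Both use the same high glucose pool, and both stand across plates, so only their own values are given. Low glucose over high glucose gave 0 higher and 0 lower of 21 genes counted, where 7.98% and 10.7% of all genes were called. The sterol sum ratio was 0.993 (0.884 to 1.12) and the fatty acid sum ratio 1.12 (0.9501 to 1.32). Within the sterol branch the 5 counted mevalonate genes all lay below 1, with a median log2 ratio of -0.39 beside -0.03 over all genes, where 4639 of all 8852 genes lay below 1, and 5 of 8 genes from squalene on lay above 1, with a median of 0.24. The intervals of all 15 counted sterol genes held 1, and in galactose over low glucose the same medians were 0.32 and 0.24. Mvd and Idi1, at 9.23 CPM in low glucose, were under the minimum there. They could thus be counted only below 1 over high glucose and only above 1 in galactose over low glucose. Dhcr7, at 7.89 CPM in high glucose, could likewise be counted only above 1 over high glucose. Per spike-in count, which shifted the median of all genes by -0.25, both branch sums lay below 1, at 0.831 and 0.936.

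Galactose over high glucose gave 2 higher, both sterol genes past squalene, and 0 lower of 22 genes counted. Over all genes 9.46% were called higher and 12.1% lower. The share of members called higher was thus close to the background, and the share called lower was under it. Sqle had 34.9 CPM in high glucose and 56.0 CPM in galactose (ratio 1.60, 1.07 to 2.47), with rows from 11.97 to 66.6 CPM and from 35.7 to 79.8 CPM. Msmo1 had 96.9 and 147 CPM (ratio 1.52, 1.19 to 1.95), with rows from 72.5 to 133 CPM and from 99.6 to 193 CPM. Rows overlapped for both genes. The sum ratios were 1.16 (1.04 to 1.301) for the sterol branch and 1.17 (1.002 to 1.38) for the fatty acid branch, and per spike-in count 1.00 and 1.01. On that scale 0 members were called higher and 0 lower, and the share of all genes called on it was not computed.

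Once depth was made equal, the shares of cells with a count of either branch had intervals that overlapped between all conditions. After every cell was thinned to 1000 counts, which left out 1 high glucose cell, 32.4% of freshly isolated cells (95% exact binomial interval 23.4 to 42.3), 46.4% of high glucose cells (37.0 to 56.1), 38.3% of low glucose cells (29.6 to 47.6) and 38.8% of galactose cells (30.1 to 48.1) had a count of any sterol gene. The shares before thinning were 62.7, 90.3, 97.5 and 97.5%, and follow the depth. For any fatty acid gene the thinned shares were 22.5, 23.2, 24.2 and 19.01%, and 53.9, 76.1 and 90.1% before thinning in freshly isolated, high glucose and galactose cells, with 114 of 120 cells in low glucose. Scd1 was found in 6.86% of freshly isolated cells after thinning and in 0.893, 5.83 and 3.31% of high glucose, low glucose and galactose cells, and in 19.6, 17.7, 32.5 and 38.8% before. Between the summed counts of the branches, Pearson's r over thinned cells was -0.21, 0.24, 0.21 and -0.11 over 102, 112, 120 and 121 cells that share a library, with Spearman's rho of -0.23, 0.15, 0.13 and -0.12, at means of 0.215 to 0.670 counts per cell, too sparse to read.

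The wider pathway was looked up in 4 further lists, whose counts on each plate are to be read beside the same background shares of all genes. Of 7 other sterol synthesis enzymes counted on plate 1, 0 were higher and 2 lower in high glucose, where 21.7% and 13.4% of all genes were. Among the lower was Acat2, an acetoacetyl-CoA thiolase, with 38.7, 13.5, 10.4 and 10.8 CPM in the 4 pools (ratio 0.349, 0.141 to 0.873). On plate 2, 0 of these 7 were called.

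Of 11 genes of sterol uptake and SREBP processing counted on plate 1, 3 were higher and 1 lower. Npc2, which hands cholesterol on in the lysosome, was among the higher, with 38.7, 81.1, 137 and 143 CPM (ratio 2.09, 1.10 to 4.38). On plate 2, 1 of 12 was higher, Npc1, the membrane partner of Npc2, with 12.1 CPM in low glucose and 23.1 CPM in galactose (ratio 1.91, 1.12 to 3.36).

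Of 6 genes of sterol efflux and its regulator LXR counted on plate 1, 2 were lower and 0 higher. Apoe, the lipoprotein component, had 591, 57.5, 12.1 and 12.3 CPM (ratio 0.0972, 0.0696 to 0.134), and Abca1, a cholesterol exporter, had 31.7, 11.3, 1.73 and 2.46 CPM (ratio 0.356, 0.130 to 0.989). The fibro-adipogenic list was also lower in the cultured pools, and its part in these ratios was not tested. Nr1h2, which encodes an LXR, had 169, 136, 274 and 253 CPM and was not called within a plate. Soat1, which esterifies cholesterol for storage, had 61.1 CPM in low glucose and 89.4 CPM in galactose (ratio 1.46, 1.15 to 1.88), just under the fold, and 0 of 5 genes of this list were called on plate 2.

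Of 13 other genes of fatty acid supply and synthesis counted on plate 1, 1 was higher and 4 were lower, and on plate 2, 0 of 15 were called. Acsl3, which activates long-chain fatty acids, had 148, 45.1, 34.0 and 36.8 CPM in the 4 pools (ratio 0.305, 0.193 to 0.482), and Hacd2, a dehydratase of chain elongation, had 98.6, 39.4, 83.0 and 87.9 CPM (ratio 0.400, 0.236 to 0.683). The genes with the most counts, Mid1ip1, which activates acetyl-CoA carboxylase, and Hsd17b12, a ketoreductase of elongation, had 130.2, 107, 157 and 142 CPM and 63.4, 78.9, 95.1 and 102 CPM, and were not called within a plate.

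Some rows could hold reads of a neighbour. In the last 1000 bases of the gene models (GENCODE release M21), exons of another gene lay at Fdps (Gm43738, same strand), Fdft1 (Ctsb), Cyp51 (Akap9), Srebf1 (Rai1) and Elovl1 (Cdc20), the last 4 on the opposite strand, and the sources used here do not say whether counting used the strand. Scd1 and Scd2 are close copies whose reads could be split between their rows. Values of these 7 genes are uncertain to that extent.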

How the data were processed

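Single muscle stem cells were sorted into 384-well plates and profiled with a modified CEL-Seq2 protocol, per the labels' protocols, with the molecular tag (UMI) in bases 1 to 6 and the well barcode in bases 7 to 14 of the first read. The authors deposited whole-number counts for each gene in each well, not normalized. The sources used here do not give the aligner, counter, strand setting, build, annotation or any collapsing by UMI. Among tools, edgeR is named in the submitters' processing notes, with no role. The 2 plate tables held 18197 and 19325 gene rows, and a gene with a row in 1 table only was taken as 0 in the other. Such genes had a median of 1 count and 0 passed the minimum in a comparison across plates.

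The deposited well sheet gave the condition of 457 wells. Wells with at least 500 counts and 250 genes were kept (456, 1 high glucose well left out). No doublet caller was run. Counts were summed over the wells of a condition and divided by its gene counts (CPM, spike-ins left out). CPM carry exact Poisson, ratios exact conditional (Clopper-Pearson) and shares exact binomial 95% intervals. Log2 ratios used a pseudocount of 1 CPM. Genes were counted from a mean of 10 CPM and called at 1.5-fold with an interval leaving out 1. With 1 library per condition no test was run. Symbols were found for 21132 of 21216 gene rows (99.6%).

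The members and lists were chosen with earlier results of these data known. Row values are given for members with a mean of at least 50 CPM over the 4 pools and for members called in a comparison. Of the context lists, the 2 genes with the most counts are named, and up to 2 called genes per within-plate comparison with the interval bound farthest from 1. Some genes this rule picked are not reported here. Other members given with a ratio were picked after their values were seen.

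Alternatives were TMM factors (edgeR 4.0.16), median-of-ratios factors (DESeq2 1.42.0), spike-in scaling, mitochondrial genes out of the total, equal weight per cell or per plate row, wells of at least 2000 counts, all wells, a mean CPM of at least 50, thinning to 1000 counts, a pseudocount of 10 CPM and a fold of 2. Leaving out wells with a marker of adipocytes or of fibro-adipogenic cells was added after the data were seen. Python 3.11.15, numpy 2.4.6, pandas 2.3.3, scipy 1.17.1 and R 4.3.3 were used. The pool ratio, its interval and the call were tested on simulated Poisson counts, which hold no added spread between cells. The other steps were not tested this way.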

Additional observations from a re-analysis of the deposited data

How the results depend on the processing

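No paired analysis was possible because the labels give no replicate numbers and each condition was measured once, and there was no replicate to leave out. The depth of the freshly isolated pool limits all comparisons on plate 1, since 1 count there was worth 3.52 CPM. Thinning to 1000 counts was a single random draw that left a mean of 0.215 to 0.670 counts of a branch per cell. All thinned ratios below, those of single genes above all, therefore rest on few counts.

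For high glucose over freshly isolated cells, the sterol median log2 ratio was -0.14 with TMM factors, -0.18 with median-of-ratios factors, 0.80 after thinning and -0.84 without wells holding a fibro-adipogenic marker, and the fatty acid median -0.23 after thinning and -0.14 without those wells. Spike-in scaling gave medians of 1.79 (sterol) and 0.96 (fatty acid), sum ratios of 3.36 and 2.27, 14 members higher and 0 lower, and a Scd1 ratio of 1.02. The sterol sum ratio was 0.897 with median-of-ratios factors, 1.48 after thinning and 0.817 without wells holding a fibro-adipogenic marker, and the fatty acid sum ratio was 1.06 after thinning. In place of 1 member lower there were 2, Scd1 and Pmvk, with TMM or median-of-ratios factors, without mitochondrial genes in the total, with equal weight per cell or per plate row, at 2000 counts per well, and without wells holding an adipocyte marker. There were 0 after thinning, where Scd1 had a ratio of 0.130 from few counts, and 0 without wells holding a fibro-adipogenic marker, where Scd1 had a ratio of 1.08.

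For galactose over low glucose, thinning gave a sterol sum ratio of 1.06, a fatty acid sum ratio of 0.781, a sterol median of -0.01, a fatty acid median of -0.49, 0 members higher and an Idi1 ratio of 0.992. The thinned low glucose and galactose cells held means of only 0.5 and 0.529 sterol and 0.275 and 0.215 fatty acid counts per cell. The fatty acid median was -0.02 with equal weight per cell and -0.09 with the minimum at 50 CPM. The sterol sum ratio was 1.33 without wells holding an adipocyte marker. In place of 1 member higher there were 0 with median-of-ratios factors (Idi1 ratio 1.84), at a mean CPM of at least 50 or at 2-fold, 3 with equal weight per cell (Idi1, Nsdhl and Ebp), and 2 (Idi1 and Insig1) without wells holding either kind of marker.

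For low glucose over high glucose, the sum ratios were 0.831 (sterol) and 0.936 (fatty acid) per spike-in count, the sterol one 0.747 after thinning and the fatty acid one 0.857 without wells holding a fibro-adipogenic marker. The fatty acid median was -0.04 per spike-in count and -0.18 without those wells. Members higher were 1 with TMM factors (Acaca), 2 with equal weight per cell (Acaca and Dhcr7) and 1 without wells holding an adipocyte marker (Acaca), and members lower were 1 with equal weight per cell (Fdps), 1 after thinning (Sc5d) and 1 without wells holding an adipocyte marker (Hmgcs1).

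For galactose over high glucose, spike-in scaling gave a sterol sum ratio of 1.00 and 0 members higher. Thinning gave a sterol median of -0.86, sum ratios of 0.790 (sterol) and 0.830 (fatty acid), 0 members higher, a Sqle ratio of 0.514 and a Msmo1 ratio of 1.60. The fatty acid sum ratio was 0.976 without wells holding a fibro-adipogenic marker. In place of 2 members higher there were 1 with equal weight per cell or per plate row (Sqle), 1 at a mean CPM of at least 50 (Msmo1), and 0 at 2-fold or without wells holding a fibro-adipogenic marker (Sqle ratio 1.98, Msmo1 1.41). The sterol median was -0.04 per spike-in count and -0.22 with the minimum at 50 CPM, and the fatty acid median -0.11 after thinning and -0.04 with that minimum. Where no construction shows it, the cause of these changes was not tested. Dropping the minimum on wells moved none of these results. A pseudocount of 10 CPM bears only on the 8 medians, which all kept their direction.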
